A study of Mus musculus with 7 samples.

Results

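Nuclear receptors are transcription factors, many of which are switched by a small fat-soluble ligand. Counts of 10 genes for such receptors, of 23420 genes in the deposited table, were examined in microglia, which are macrophages of brain tissue. The genes are Esr1, Nr3c1, Rxra, Rxrb, Rara, Ppard, Vdr, Nr1d1, Nr1d2 and Rora, and they were taken by gene symbol. They were chosen by their counts in these same libraries, with earlier results known (Esr1 for its difference between the groups), so their levels and fold changes are given as a description without a test. The cells were sorted at postnatal day 30 from the cortex of single mice by the surface proteins CD11b, CX3CR1 and a low level of CD45, and poly(A) RNA was sequenced. The cKO group (n = 4) had the genotype Tmem119creErt2+ Srgap2f/f, with floxed Srgap2 and a tamoxifen-inducible recombinase driven from Tmem119, a gene of microglia. The WT group (n = 3) consisted of Srgap2f/f littermates without the recombinase, so the WT mice carried the floxed alleles too. Tamoxifen was gavaged to cKO and WT mice alike at postnatal days 8 and 10, with 75 ug per g of body weight given each time. Srgap2 encodes a regulator of membrane shape and the actin cytoskeleton, and the series asks what its loss changes in microglia of juvenile mice. The recombinase was present in cKO alone, so its effects and those of the Srgap2 deletion cannot be told apart.

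Receptors of this family share a DNA-binding domain with zinc fingers and, at the other end, a domain that binds the ligand and recruits coactivators or corepressors. Steroid receptors such as the estrogen receptor (Esr1) and the glucocorticoid receptor (Nr3c1) are held by the Hsp90 chaperone machinery until they bind hormone, and then act mainly as homodimers. Receptors for retinoic acid (Rara), fatty acids (Ppard) and vitamin D (Vdr) act as heterodimers with a retinoid X receptor (Rxra, Rxrb). Rev-erb alpha and beta (Nr1d1, Nr1d2) repress, and ROR alpha (Rora) activates, clock genes through the same DNA elements. In microglia, glucocorticoid signalling is best known for restraining inflammatory genes. Tamoxifen, which both groups received, yields metabolites that bind the estrogen receptor. CreERT2 is the Cre recombinase joined to a mutated ligand-binding domain of estrogen receptor alpha.

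Promoters are shown for the genes whose log2 level varied most between the 7 libraries among those with at least 1 CPM (counts scaled to library size, as described with the processing) in every library. The standard deviation of log2 CPM over the libraries was 2.93 for Esr1, 0.39 for Nr1d1 and 0.31 for Nr1d2. Each sequence is the stretch before a transcription start in the RefSeq annotation of GRCm38.p6, read 5′ to 3′ on the strand of the gene and without bases of an annotated exon. Of the 2 windows listed for Esr1, the one shown is the second, since the first lies within an exon. It is at chr10:4709908-4710154 on the plus strand, that of Nr1d1 at chr11:98775378-98775627 on the minus strand, and that of Nr1d2 at chr14:18239128-18239356 on the minus strand. Capitals mark AGGTCA, the half-site that many receptors of this family bind.
Esr1: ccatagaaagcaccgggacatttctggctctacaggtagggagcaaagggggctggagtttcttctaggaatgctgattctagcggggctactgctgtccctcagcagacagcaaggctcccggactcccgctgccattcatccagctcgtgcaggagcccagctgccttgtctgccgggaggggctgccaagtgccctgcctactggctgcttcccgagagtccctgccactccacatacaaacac
Nr1d1: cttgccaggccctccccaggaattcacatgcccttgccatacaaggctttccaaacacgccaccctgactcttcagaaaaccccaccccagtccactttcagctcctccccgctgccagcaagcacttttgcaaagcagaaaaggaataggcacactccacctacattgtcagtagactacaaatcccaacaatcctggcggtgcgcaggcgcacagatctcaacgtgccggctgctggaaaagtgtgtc
Nr1d2: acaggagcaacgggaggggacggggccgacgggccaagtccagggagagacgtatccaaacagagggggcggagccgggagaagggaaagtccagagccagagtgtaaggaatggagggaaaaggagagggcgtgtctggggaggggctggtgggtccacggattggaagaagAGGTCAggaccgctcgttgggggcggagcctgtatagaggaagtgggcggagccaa

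In the whole windows of 250 bases, AGGTCA was found on either strand in 2 of the 15 windows of 9 receptor genes, the second window of Rxra and that of Nr1d2, where it lay 77 bases before the start. Of 27025 windows over all genes, the first of each gene, 13.8% held it. The 15 windows include every start of the 9 genes, so these shares are not of like units, here and for the motifs below. The E-box CACGTG, which clock proteins bind, was found in 1 of the 15 windows, a window of Rara, against 6.05% of the 27025 windows. The steroid receptor half-site AGAACA was found in 0 of the 15, against 16.2% of the 27025 windows. These are matches of letters in one window per start and say nothing on binding.

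Total counts ranged from 27016173 to 35707304 per library. Srgap2, the deleted gene, was at 212 to 344 CPM in cKO against 691 to 979 in WT, and the libraries of the groups did not overlap. All 10 microglial markers were read, with a summed level of 56220 to 65900 CPM in cKO against 66190 to 68920 in WT, ranges that did not overlap. That sum includes Tmem119, from which the recombinase is driven, at 3005 to 4664 CPM in cKO against 6168 to 7212 in WT. The median log2 fold change of the 10 markers was −0.05, and 3 of them were above 0. The groups did not overlap for 2 of the 10, both with cKO lower, against 7.2% of all genes tested. These were Tmem119 and Cx3cr1, the latter at 6069 to 6846 CPM in cKO against 6975 to 7981 in WT. The part of single markers in the gap between the sums was not tested. The summed markers of other cells were lower and overlapped between the groups in every list. They were 1169 to 1430 against 1081 to 1342 CPM for border-associated macrophages, 8.16 to 10.1 against 5.88 to 10.5 for monocytes and neutrophils, and 0.0919 to 0.643 against 0.256 to 0.349 for lymphocytes. They were 88.4 to 141 against 134 to 140 CPM for astrocytes, 226 to 332 against 227 to 257 for the oligodendrocyte lineage, 8.37 to 15.0 against 8.30 to 13.1 for neurons, and 57.5 to 76.5 against 72.8 to 80.6 for endothelial and mural cells. Most of the sum for border-associated macrophages was Stab1 alone, at 1078 to 1300 CPM in cKO against 995 to 1232 in WT. The next highest marker of that list, Mrc1, was at 36.5 to 71.5 against 40.5 to 62.3 CPM. The neutrophil genes Retnlg, Elane and Mpo and the vascular genes Cldn5, Ly6c1, Slco1a4 and Rgs5 were at 0 in every library. Xist, the RNA of the silenced X chromosome, was at 0 to 0.658 CPM in cKO replicates 1 and 3 and WT replicate 1 and at 69.5 to 243 CPM in the other libraries. Both kinds of library occur in both groups.

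Esr1 was the receptor with the largest difference. It was at 162, 163, 187 and 212 CPM in cKO replicates 1 to 4 and at 3.47, 4.22 and 4.27 CPM in WT replicates 1 to 3. Every cKO library was thus far above every WT library, and the WT libraries still held 95, 133 and 153 counts, so the WT level did not rest on single reads. Over the 4 cKO libraries it averaged 181 ± 23.7 CPM (SD), over the 3 WT libraries 3.99 ± 0.448 CPM (SD), a ratio of 45.4. The log2 fold change was 5.50 (SE 0.16), which ranked 1 among the 11991 genes with enough counts for the comparison, and it stayed between 5.41 and 5.55 under every alternative processing, including each library left out in turn. Per-gene counts do not show from which part of Esr1 the reads came. Reads of the native gene and any reads of the receptor domain of the recombinase that were assigned to Esr1 cannot be told apart, and their shares were not tested. In bulk RNA, a change in the share of cells that express a gene and a change in RNA per cell cannot be told apart either, and this holds for each gene below.

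The Esr1 count was also set against that of Tmem119, the gene from which the recombinase is driven. Tmem119 was at 3005, 3360, 3799 and 4664 CPM in cKO against 6292, 6168 and 7212 in WT. Its log2 fold change was −0.82 (SE 0.15, adjusted p = 0.046 by the quasi-likelihood test of edgeR with Benjamini-Hochberg adjustment), lower in 4 of 4 cKO libraries than in any WT library. That call was lost without WT replicate 1, 2 or 3 or cKO replicate 2 or 3 (adjusted p from 0.10 to 0.22). Within cKO, Esr1 and Tmem119 had the same order over the libraries, replicate 1 lowest and replicate 4 highest. Esr1 per 1000 CPM of Tmem119 was 53.9, 48.6, 49.3 and 45.5 in cKO, a mean of 49.3 ± 3.46 (SD, n = 4). The coefficient of variation in cKO was 7.02% for this ratio and 13.1% for Esr1 alone. In WT the ratio was 0.552, 0.685 and 0.592, a mean of 0.609 ± 0.0681 (SD, n = 3), with a coefficient of variation of 11.2% both for the ratio and for Esr1 alone. Srgap2 ran the other way at the ends of that order, with its highest cKO level, 344 CPM, in replicate 1 and its lowest, 212 CPM, in replicate 4. Over cKO replicates 1, 3, 2 and 4 Srgap2 fell. The rank correlation across genes between a library's deviation and GC content rose in that order, at −0.50, −0.41, 0.16 and 0.42. In WT, without the recombinase, Srgap2 was at 979, 691 and 693 CPM in replicates 1 to 3. The part of base composition in these levels was not tested. With 4 libraries these orders are a description.

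**Figure D1:**
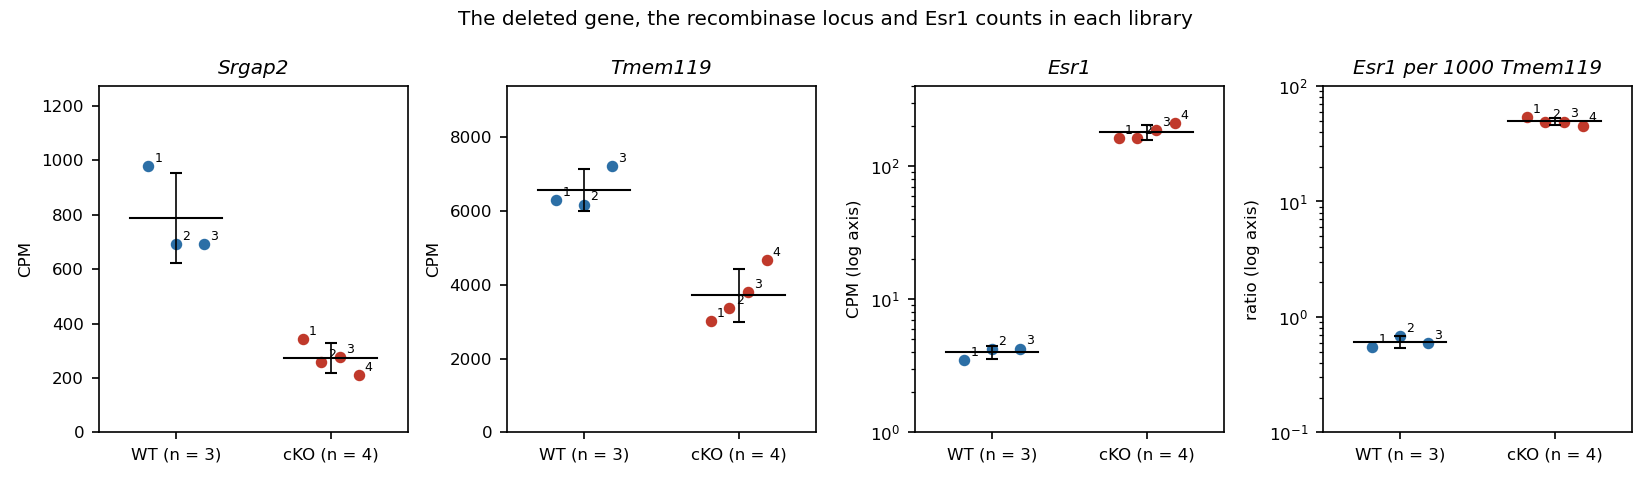
Levels of Esr1, Tmem119 and Srgap2 (CPM) and the ratio of Esr1 to Tmem119 (CPM of Esr1 per 1000 CPM of Tmem119), with Esr1 and the ratio on log axes. Points are libraries (numbered by replicate), bars group means and whiskers SDs; the cKO libraries lie at 162 to 212 CPM of Esr1 and the WT libraries at 3.47 to 4.27 CPM.

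The genes beside Esr1 did not share its difference. In the gene order of the reference table, Zbtb2, a zinc finger protein gene a few places before Esr1, was at 28.4, 25.5, 25.5 and 23.0 CPM in cKO and 28.5, 22.2 and 27.4 in the WT mice (log2 fold change −0.03, SE 0.13, adjusted p = 0.95 by edgeR). Rmnd1 and Ccdc170 before it, and Syne1 and Myct1 after it, were under 0.4 CPM in every library, and Vip was at 0 in all of them. These 5 genes had too few counts to be tested. Esr2, the gene of estrogen receptor beta, was at 0 in all 7 libraries. The receptor for progesterone, Pgr, itself a classical target of estrogen, had 1 count in 1 cKO library and none elsewhere.

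Of the other receptor genes, Rxra, Rxrb, Nr3c1 and Ppard were abundant, with at least 50 CPM in every library. Vdr had too few counts to be compared. For the 8 others the libraries of the 2 groups overlapped. Over all genes tested the groups did not overlap for 16.1%. Since the genes were chosen with this comparison known, nothing is read from this overlap. Of the 8 log2 fold changes, 5 were above 0 (48.1% of all genes), the median was 0.08 against −0.012 over all genes, and the largest in size was 0.48.

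**Figure D2:**
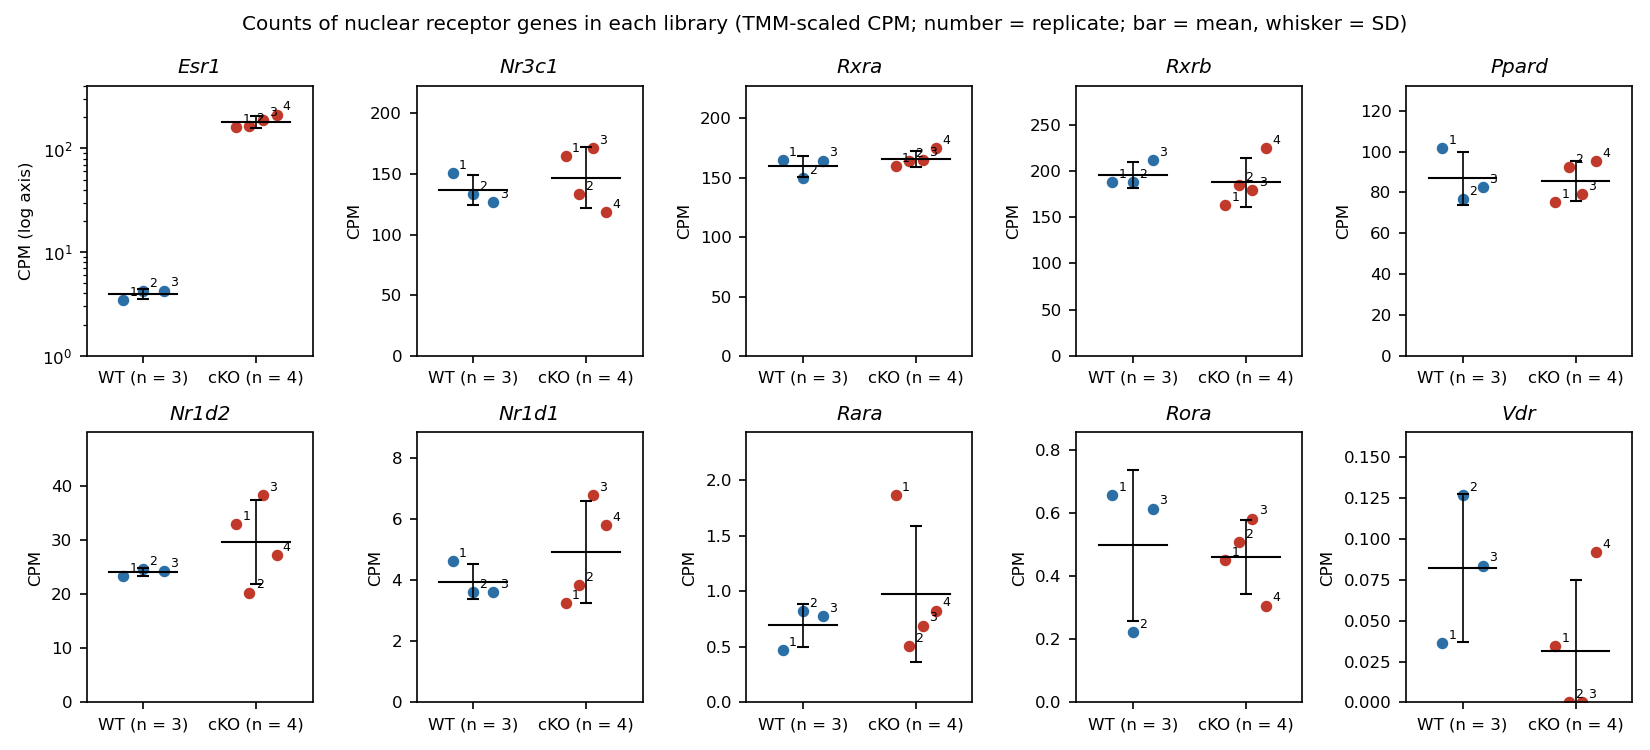
Level of each of the 10 receptor genes (CPM) in the 4 cKO and 3 WT libraries; points are libraries (numbered by replicate), bars group means and whiskers SDs, with Esr1 on a log axis. Esr1 alone has groups that lie far apart, while the points of the other genes overlap. Over all genes tested the groups did not overlap for 16.1%.

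Nr3c1 encodes the glucocorticoid receptor. It was at 164, 133, 171 and 118 CPM in cKO against 151, 133 and 127 in WT, with a log2 fold change of 0.10 (SE 0.14, 95% interval −0.21 to 0.41). Its highest levels were in cKO replicates 3 and 1 and in WT replicate 1, which are the 3 libraries with Xist at or near 0. Base composition moved in part with the same libraries. The rank correlation across genes between a library's deviation and GC content was −0.50 and −0.41 in cKO replicates 1 and 3 and 0.00 in WT replicate 1, against 0.07 to 0.42 in the other 4. With log2 CPM of Xist as a covariate the log2 fold change of Nr3c1 was −0.02, and with offsets for GC content and length it was 0.09. The part of Xist status and of base composition in the level of Nr3c1 was not tested.

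The retinoid X receptors are the shared partners of the heterodimeric receptors. Rxra was the steadiest of the set, at 160, 164, 165 and 175 CPM in cKO and 165, 150 and 164 in the WT mice (log2 fold change 0.05, SE 0.10, 95% interval −0.16 to 0.27). Its highest library exceeded its lowest 1.17-fold. Rxrb was at 163, 184, 179 and 224 CPM in cKO against 188, 188 and 212 in WT. Its log2 fold change was −0.06 (SE 0.12, 95% interval −0.33 to 0.21), and its highest levels were in cKO replicate 4 and WT replicate 3. Rxrg, the third gene of this type, was under 1 CPM on average in both groups (0.309 ± 0.258 in cKO, 0.571 ± 0.432 in WT).

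Among the partners, Ppard, a receptor for fatty acids that activates genes of fat oxidation, was at 75.4, 92.5, 79.2 and 95.4 CPM in cKO against 102, 76.7 and 82.7 in WT. The log2 fold change was −0.02 (SE 0.13, 95% interval −0.31 to 0.27), with the highest library in WT and the lowest in cKO. Its relatives Pparg and Ppara were nearly unread, at 0.146 to 0.381 CPM and 0 to 0.146 CPM over the libraries. Rara, a retinoic acid receptor, was low, at 1.87, 0.508, 0.692 and 0.827 CPM in cKO against 0.475, 0.825 and 0.781 in WT. The log2 fold change of 0.48 (SE 0.47) rested on cKO replicate 1 with 54 counts, where the other libraries had 13 to 28, and was −0.06 without it. Vdr, the vitamin D receptor, had 1, 0, 0 and 3 counts in cKO and 1, 4 and 3 in WT. It fell under the filter on low counts, and no fold change is given.

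The clock receptors were read at low to moderate levels. Nr1d1 was at 3.26, 3.86, 6.81 and 5.82 CPM in cKO and 4.64, 3.62 and 3.63 in the WT mice (log2 fold change 0.32, SE 0.26, 95% interval −0.26 to 0.90). The spread within cKO covered the whole WT range. Nr1d2 was at 33.0, 20.3, 38.4 and 27.3 CPM in cKO and 23.4, 24.7 and 24.3 in the WT mice (log2 fold change 0.30, SE 0.19, 95% interval −0.10 to 0.71). Here the WT libraries lay close together, at 24.1 ± 0.686 CPM (SD, n = 3), and the cKO libraries lay on both sides of them, at 29.8 ± 7.76 CPM (SD, n = 4). Without cKO replicate 3 the log2 fold change was 0.13 for Nr1d1 and 0.16 for Nr1d2. Rora, at 0.450, 0.508, 0.583 and 0.307 CPM in cKO against 0.658, 0.222 and 0.614 in WT, was too scarce for more than a wide interval (log2 fold change −0.11, 95% interval −1.11 to 0.89). Nr1d1 overlaps the thyroid hormone receptor gene Thra on the opposite strand, and the strand setting of the counts is not given in the sources used here, so reads of the overlap cannot be assigned.

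Levels of different genes were compared per length, as CPM per kilobase of the longest transcript in GENCODE M21. In WT the order was Rxrb (74.5 ± 5.21), Rxra (32.5 ± 1.75), Ppard (23.4 ± 3.48), Nr3c1 (21.3 ± 1.93), Nr1d2 (5.17 ± 0.147), Nr1d1 (1.46 ± 0.216), Esr1 (0.629 ± 0.0706), Rara (0.205 ± 0.0564), Rora (0.0458 ± 0.0220) and Vdr (0.0189 ± 0.0104), each as CPM per kilobase with its SD over 3 libraries. The libraries of neighbours in this order overlapped for Ppard and Nr3c1 and for Rora and Vdr, and for no other pair. In cKO Esr1 ranked 3, at 28.6 ± 3.73 CPM per kilobase (SD, n = 4), after Rxrb (71.4 ± 9.95) and Rxra (33.8 ± 1.31). Its libraries there overlapped those of Rxra above it and of Ppard (23.0 ± 2.64) below it. If part of the Esr1 reads came from the recombinase, the length used for Esr1 is not the right one for them.

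**Figure D3:**
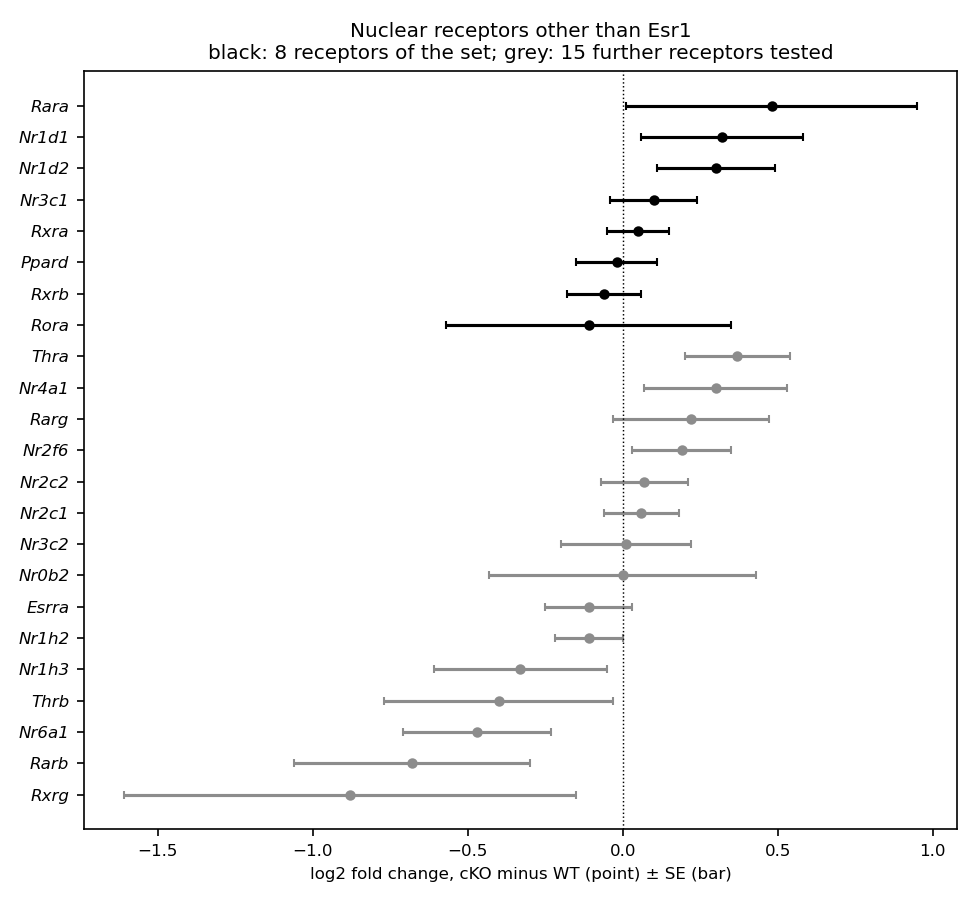
Log2 fold change (cKO minus WT) with its standard error for the 8 receptors of the set other than Esr1 and Vdr and for the 15 other nuclear receptor genes tested. The dotted line marks no difference, and Esr1, at 5.50, is left out.

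The remaining nuclear receptors of the mouse were described from a list of 39 genes. In this list 26 were under 1 CPM in every library, among them 8 at 0 throughout: Esr2, Nr1h4, Nr1h5, Hnf4a, Hnf4g, Nr2e3, Nr5a2 and Nr0b1. Of the 15 tested, 0 passed an adjusted p of 0.05 by edgeR (0.359% of all genes), and 0 had an unadjusted p under 0.05 (16.5%). By DESeq2 (4.49%), limma-voom (0.4%) and limma-voom with sample quality weights (8.0%), 0 passed too. The median log2 fold change was 0.00. Nr1h2, the liver X receptor beta that senses oxysterols, was the highest of the list by CPM, which is not scaled to transcript length. It was at 109 ± 12.3 CPM in cKO and 117 ± 3.90 in the WT mice (log2 fold change −0.11, SE 0.11). Nr2f6, an orphan receptor, was at 82.2 ± 13.8 and 72.2 ± 12.2 CPM, and Esrra, the estrogen-related receptor alpha of mitochondrial genes, at 74.7 ± 13.1 and 80.8 ± 7.31 CPM in cKO and WT. Nr6a1, an orphan receptor known from germ cells and early embryos, was the 1 gene of the list whose groups did not overlap, against 16.1% of all genes. It was at 1.39, 1.35, 1.57 and 1.20 CPM in cKO and 2.05, 1.87 and 1.81 in the WT mice (log2 fold change −0.47, SE 0.24, adjusted p = 0.36 by edgeR). Thra, the thyroid hormone receptor alpha, had a log2 fold change of 0.37 (SE 0.17, adjusted p = 0.30 by edgeR), and Nr4a1, an immediate early gene, 0.30 (SE 0.23). Nr3c2, the mineralocorticoid receptor, was at 5.16 ± 1.27 CPM in cKO and 5.13 ± 0.324 in WT.

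Coregulators carry the output of these receptors. Of 26 listed, 25 were tested and 0 passed by edgeR, 1 had an unadjusted p under 0.05 (16.5% of all genes), 0 passed by DESeq2 or limma-voom (4.49% and 0.4%), and 1 passed with quality weights (8.0%). The median log2 fold change was 0.04. Tbl1x, a subunit of the NCoR and SMRT corepressor complexes, was at 53.9, 47.7, 45.2 and 42.4 CPM in cKO and 40.8, 37.0 and 36.2 in the WT mice (log2 fold change 0.32, SE 0.12, adjusted p = 0.21 by edgeR). Prmt1, an arginine methyltransferase and coactivator, had a log2 fold change of 0.29 (SE 0.14), and Ncoa2, a p160 coactivator, 0.19 (SE 0.16). For Ncoa5 and Asxl1 it was below 0, at −0.12 (SE 0.10) and −0.16 (SE 0.12). The groups did not overlap for 1 higher gene and 2 lower genes of the 25, against 8.86% and 7.2% of all genes.

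Of 17 genes of the chaperone system of steroid receptors, which also include the heat shock transcription factor Hsf1 and the ubiquitin ligase Stub1, 1 passed the test, with a higher level in cKO, against 0.317% of all genes. St13, the Hsp70-interacting protein Hip, rose from 135, 119 and 111 CPM in WT to 197, 201, 209 and 171 CPM in cKO (log2 fold change 0.68, SE 0.11, adjusted p = 0.036 by edgeR, higher in 4 of 4 cKO libraries than in any WT library). The call was lost without WT replicate 1, 2 or 3 or cKO replicate 2 or 3 (adjusted p from 0.061 to 0.26). Of the 17, 16 had a log2 fold change above 0, and the median was 0.39, between 0.35 and 0.41 with any library left out. The unadjusted p was under 0.05 with a higher level in cKO for 9 of 17, against 9.65% of all genes. The libraries of the groups did not overlap, with cKO higher, for 9 of 17, against 8.86% of all genes. DESeq2 called 6, limma-voom 1 and quality weights 8 of them, all higher, against 4.49%, 0.4% and 8.0% of all genes in both directions. Members of one heat shock system are not independent of each other, and the list was chosen with earlier results known.

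Single members of the list show the sizes. Hsp90aa1, the inducible Hsp90, was at 64.5, 62.4, 81.9 and 53.0 CPM in cKO and 42.4, 40.0 and 46.4 in the WT mice (log2 fold change 0.61, SE 0.15, adjusted p = 0.10 by edgeR). Stip1, which links Hsp70 to Hsp90, was at 117, 102, 143 and 126 CPM in cKO and 89.9, 73.7 and 83.5 in the WT mice (log2 fold change 0.56, SE 0.13, adjusted p = 0.098 by edgeR). In both genes every cKO library lay above every WT library without passing the threshold. The log2 fold change was 0.44 (SE 0.12) for Hsp90ab1, the constitutive Hsp90, 0.44 (SE 0.12) for Ptges3, the p23 cochaperone, and 0.46 (SE 0.12) for Ahsa1, which stimulates the Hsp90 ATPase. The adjusted p was 0.13 by edgeR for each of these 3.

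Genes known to respond to estrogen in breast and uterus were taken as a list of 24, which includes Rara. Of these 12 were under 1 CPM in every library. Among them Greb1 had 1 count in 1 WT library, Pgr 1 count in 1 cKO library and Tff1 none. Of the 14 tested, 0 passed by edgeR, 3 had an unadjusted p under 0.05, all higher in cKO (9.65% of all genes), and the median log2 fold change was 0.08. DESeq2 called 1, limma-voom 0 and quality weights 2, against 4.49%, 0.4% and 8.0% of all genes. Igfbp4, an IGF-binding protein, was at 122, 136, 127 and 139 CPM in cKO and 107, 95.6 and 92.2 in the WT mice (log2 fold change 0.41, SE 0.11, adjusted p = 0.12 by edgeR). Myc, the growth regulator, had a log2 fold change of 0.40 (SE 0.15), with libraries that overlapped, and Rab31, a vesicle GTPase, 0.29 (SE 0.13). Ctsd, a lysosomal protease that is also abundant in microglia, was at 14490 ± 3082 CPM in cKO and 18130 ± 1625 in the WT mice (log2 fold change −0.32, SE 0.17).

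Of 26 listed targets of the glucocorticoid receptor, 21 were tested and 0 passed by edgeR. An unadjusted p under 0.05 was found for 1 higher gene and 3 lower genes, against 9.65% and 6.87% of all genes, and the median log2 fold change was −0.11. DESeq2 called 1 lower, limma-voom 0, and quality weights 2 lower, against 4.49%, 0.4% and 8.0% of all genes in both directions. Sgk1, a hormone-induced kinase, was at 418, 482, 456 and 480 CPM in cKO and 724, 538 and 636 in the WT mice (log2 fold change −0.46, SE 0.12, adjusted p = 0.12 by edgeR). The groups did not overlap for it, nor for Zfp36, which destabilises inflammatory mRNAs (log2 fold change −0.35, SE 0.11), or Cdkn1a, a cell cycle inhibitor (−0.60, SE 0.21), 3 genes of 21 with cKO lower, against 7.2% of all genes. Mt1, a metallothionein, had the opposite sign (log2 fold change 0.51, SE 0.20).

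Some well known glucocorticoid targets had libraries that overlapped widely between the groups. The 3 genes below were chosen after their values were seen. Fkbp5, a cochaperone that lowers the receptor's affinity for hormone, was at 318, 133, 231 and 132 CPM in cKO against 237, 113 and 130 in WT. Tsc22d3, known as GILZ, was at 207, 88.8, 248 and 210 CPM in cKO against 171, 123 and 243 in WT. Ddit4, a stress-induced inhibitor of mTORC1, was at 803, 194, 669 and 754 CPM in cKO against 560, 373 and 848 in WT. The 3 libraries highest in Fkbp5 were the same 3 that were highest in Nr3c1 and had Xist at or near 0. Tsc22d3 and Ddit4 had their lowest levels in cKO replicate 2 and WT replicate 2 instead. What sets these differences between mice of one group was not tested.

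**Figure D4:**
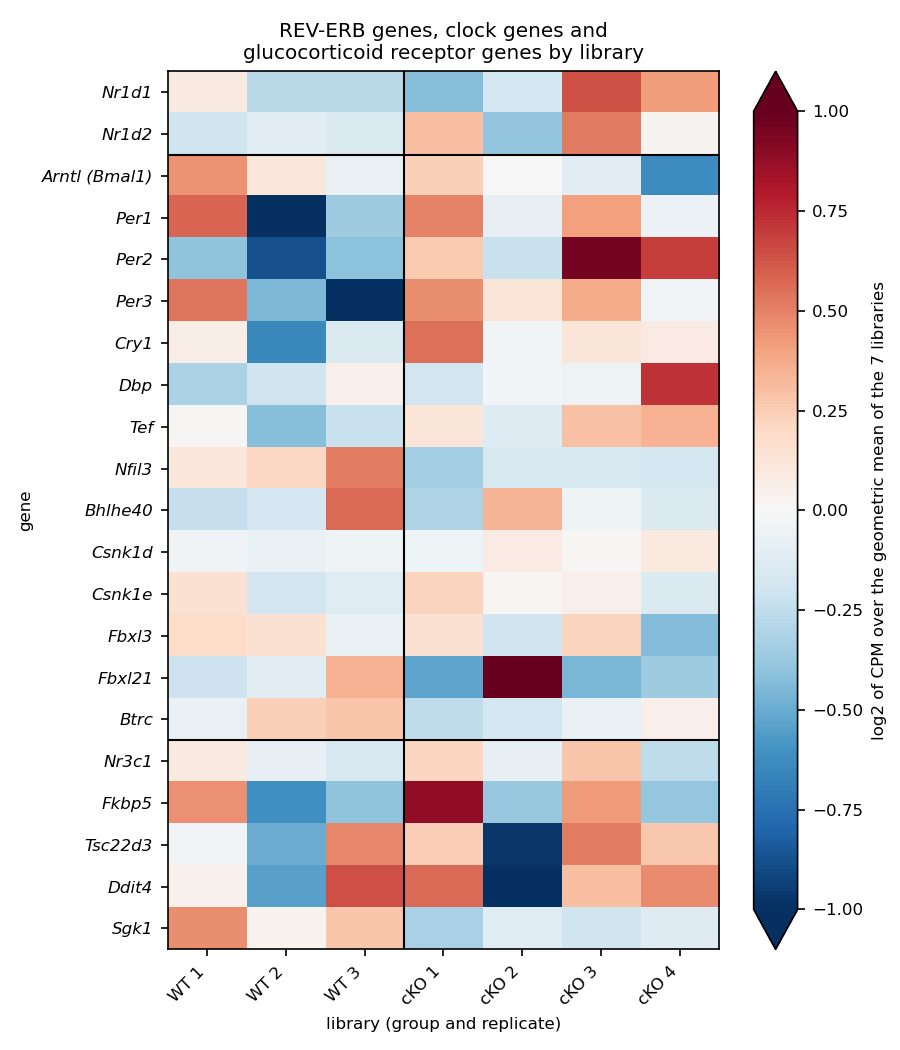
Level of clock genes and glucocorticoid targets in each library, in colour, as the log2 ratio of its CPM to the gene's geometric mean over the 7 libraries; values beyond the ends of the colour scale take its end colours. Fkbp5 is high in cKO replicates 1 and 3 and WT replicate 1, and Ddit4 is low in replicate 2 of both groups.

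In the clock list, 19 of 22 genes were tested and 0 passed by edgeR. An unadjusted p under 0.05 was found for 2 higher genes and 1 lower gene, against 16.5% of all genes in both directions, and the median log2 fold change was 0.08. DESeq2 called 1 higher and 1 lower, limma-voom 0, and quality weights 3 higher and 1 lower, against 4.49%, 0.4% and 8.0% of all genes. Per2, a repressor of the core loop, was at 2.32, 1.66, 3.75 and 3.13 CPM in cKO and 1.46, 1.05 and 1.45 in the WT mice (log2 fold change 1.04, SE 0.31, adjusted p = 0.15 by edgeR). Nfil3, a repressor whose own gene is repressed by Rev-erb, was at 12.7, 14.4, 14.4 and 14.3 CPM in cKO and 17.4, 18.6 and 23.0 in the WT mice (log2 fold change −0.50, SE 0.14, adjusted p = 0.13 by edgeR). These were the 2 genes of the list whose groups did not overlap, against 16.1% of all genes. Bmal1, listed as Arntl, is another gene that Rev-erb represses and ROR activates, and was at 12.6 ± 2.95 CPM in cKO and 15.2 ± 2.86 in the WT mice (log2 fold change −0.27, SE 0.20).

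The output genes of the clock differed in spread. Dbp was at 7.31, 8.12, 8.01 and 13.7 CPM in cKO against 6.65, 7.24 and 8.60 in WT. Tef, a relative of Dbp, had a log2 fold change of 0.37 (SE 0.14, adjusted p = 0.22 by edgeR). Per1, which glucocorticoids also induce, ranged from 85.3 to 127 CPM in cKO and between 45.4 and 136 CPM in WT, so the WT libraries enclosed those of cKO. The log2 fold change was 0.42 (SE 0.30) for Per3 and 0.41 (SE 0.21) for Cry1, both repressors. The hour of day at which each mouse was killed is not given in the labels, and its part in these levels was not tested.

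Of 37 listed targets of retinoid, vitamin D and PPAR receptors, 20 were tested and 0 passed by edgeR. Among the 17 under 1 CPM in every library were the retinoid-induced Cyp26a1 and Cyp26b1, the vitamin D target Cyp24a1, and the PPAR targets Pdk4 and Angptl4. An unadjusted p under 0.05 was found for 8 higher genes and 1 lower gene, against 9.65% and 6.87% of all genes. For 7 of the 20 the groups did not overlap, all with cKO higher, against 8.86% of all genes. The median log2 fold change was 0.19, between 0.16 and 0.21 with any library left out. DESeq2 called 2, limma-voom 0 and quality weights 2, all higher, against 4.49%, 0.4% and 8.0% of all genes in both directions. The 1 lower gene was Dhrs3, a retinoid-induced enzyme that reduces retinal, named here after its value was seen. It was at 176 ± 28.0 CPM in cKO and 225 ± 25.4 in the WT mice (log2 fold change −0.36, SE 0.14, adjusted p = 0.22 by edgeR), with libraries that overlapped.

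Ucp2, a mitochondrial carrier, was at 692, 733, 723 and 860 CPM in cKO and 537, 435 and 531 in the WT mice (log2 fold change 0.59, SE 0.12, adjusted p = 0.070 by edgeR). Hadha, a subunit of the mitochondrial trifunctional protein of fat oxidation, was at 192, 202, 168 and 206 CPM in cKO and 154, 136 and 156 in the WT mice (log2 fold change 0.37, SE 0.11, adjusted p = 0.15 by edgeR). Its partner subunit Hadhb had a log2 fold change of 0.38 (SE 0.12). For the mitochondrial dehydrogenases Acadvl and Acadl it was 0.38 (SE 0.12) and 0.33 (SE 0.12). In these 5 genes every cKO library lay above every WT library, and none passed the threshold.

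**Figure D5:**
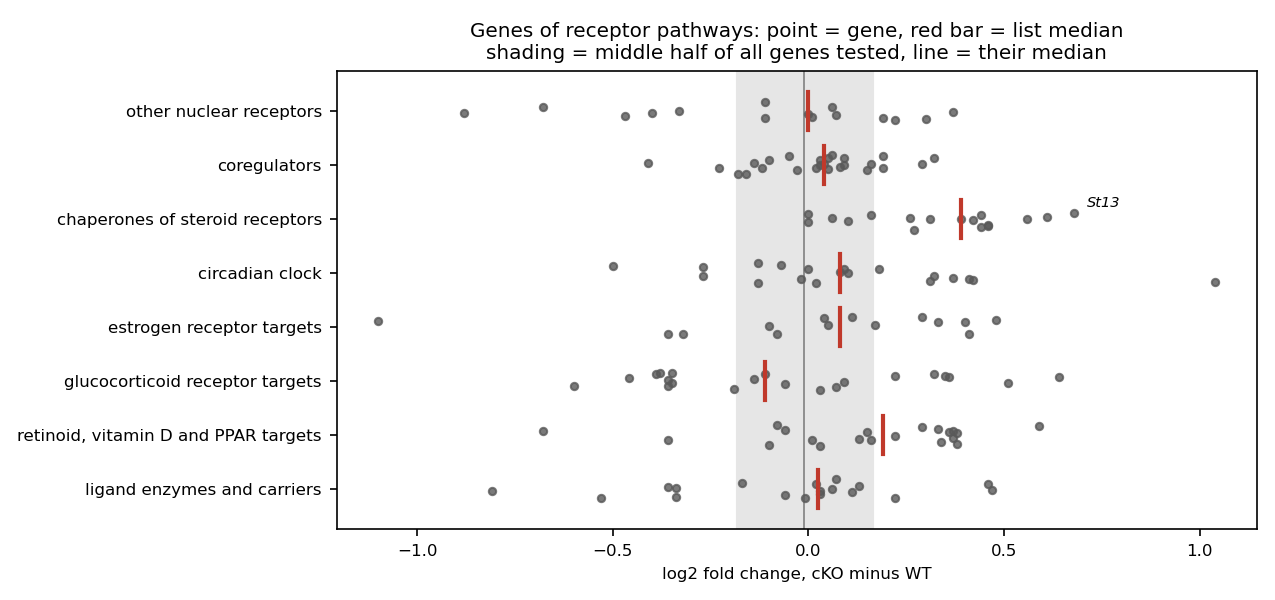
Log2 fold changes (cKO minus WT) of the genes tested in each list; points are genes, red bars are list medians, and the line and shading are the median and the middle range (25th to 75th percentile) of all genes tested. Of the lists plotted, that of the chaperone system has the highest median, 0.39, and that of the glucocorticoid targets the lowest, −0.11.

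Enzymes and carriers that make, convert or bind the ligands formed a list of 31, of which 18 were tested and 0 passed by edgeR. An unadjusted p under 0.05 was found for 2 higher and 2 lower genes, against 9.65% and 6.87% of all genes, and the groups did not overlap for 3 higher and 3 lower genes, against 8.86% and 7.2% of all genes. The median log2 fold change was 0.02. DESeq2 called 1 higher and 2 lower, limma-voom 0, and quality weights 1 of each, against 4.49%, 0.4% and 8.0% of all genes. Hsd17b4, a peroxisomal enzyme of fat oxidation that can also oxidise estradiol, was at 237, 271, 245 and 238 CPM in cKO and 183, 185 and 169 in the WT mice (log2 fold change 0.47, SE 0.10, adjusted p = 0.083 by edgeR). Hsd17b1, which reduces estrone to estradiol, was scarce, at 2.34 ± 0.501 CPM (SD, n = 4) in cKO and 4.10 ± 0.509 (SD, n = 3) in the WT mice (log2 fold change −0.81, SE 0.23, adjusted p = 0.13 by edgeR). Cyp27a1, which makes 27-hydroxycholesterol, a ligand of liver X and estrogen receptors, was at 42.5, 40.9, 44.3 and 43.3 CPM in cKO and 60.8, 53.1 and 50.5 in the WT mice (log2 fold change −0.36, SE 0.11, adjusted p = 0.15 by edgeR). The groups of each of the 3 genes lay apart without passing the threshold.

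For each receptor gene tested, the genes with the most similar profile over the 7 libraries were found among 9721 genes, by the root mean square difference of standardised log2 CPM. This measure is 0 for the same profile and at most 2. Nearest to Esr1 were Hn1l (0.13), Chp1 (0.14) and Nudt4 (0.15), whose own log2 fold changes were 0.69, 0.42 and 0.28. The measure takes the shape of a profile and not its size, and a gene chosen for a difference between the groups has near neighbours with one too. Nearest to Nr3c1 were Cir1 (0.13), Zzz3 (0.16) and Ipo7 (0.17), all highest in the same 3 libraries as Nr3c1. Nearest to Rxrb were Klhl36 (0.09), Mfsd10 (0.13) and Cbr3 (0.14), and nearest to Rxra were Doc2a (0.21), Gtf2f1 (0.31) and Slc9a3r1 (0.32). For Ppard they were Tbc1d10b (0.20), Tfeb (0.29) and Mllt1 (0.30). For Nr1d2 they were Cers6 (0.20), Ston2 (0.38) and Aaed1 (0.39), and for Nr1d1 Tuba4a (0.38), Tnf (0.41) and Pde8a (0.41). The scarce genes had Itsn1 (0.24), Pnpla2 (0.27) and Tex30 (0.37) for Rora, and Atpbd4 (0.30), Cenpc1 (0.36) and Lrrc8b (0.42) for Rara. The profiles share the library's depth and base composition, and they are given as a description.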

How the data were processed

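The deposited data are raw counts, whole numbers for each gene symbol in each library. The submitters' processing notes name DRAGEN and the GRCm39 build; for the annotation, strand and rule of counting the answer is "not given in the sources used here". Genes were kept with filterByExpr of edgeR 4.0.16 (least count 10, least total 15), scaled with TMM factors, and compared between cKO and WT by the robust quasi-likelihood test in R 4.3.3, with Benjamini-Hochberg adjustment over all 11991 genes tested and a threshold of 0.05. The procedure was tested on simulated data. CPM is TMM-scaled, values are mean ± SD, and the SE of log2 fold changes is their size over the square root of F. Intervals cover 95% by the t distribution. Each library is 1 numbered mouse.

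The receptors, the lists and the rule for naming genes (per list up to 6 genes, for the clock up to 14, by adjusted p and then p) were chosen with earlier results of these data known. Some of the listed targets were named by older symbols in the table (for example Arntl for Bmal1). Alternatives were RLE and upper-quartile factors, DESeq2 1.42.0, limma 3.58.1 (voom, with and without quality weights), other filters, blocks, Xist as a covariate, offsets for GC content and length (GENCODE M21), and each library left out. RefSeq promoter windows of GRCm38.p6 were matched by symbol for 9 of the 10 receptors. Their coordinates are those of that build and not of the authors' build. No protein sequence was used here. A few genes that the naming rule takes are left out of the text but stay in every count.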

Additional observations from a re-analysis of the deposited data

Results flagged for a closer look

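In 5 of 77 genes examined, 1 of the 4 cKO libraries stood apart from the others. Its gap to the nearest neighbour took more of the group's range than Dixon's critical value allows. This ratio takes no account of the size of the gap, which can be small. Chance gives about 1 in 20, so 5 of 77 is near what chance gives. Dbp was at 13.7 CPM in cKO replicate 4 and at 7.31 to 8.12 CPM in the other cKO libraries. Ptges3 was at 40.2 CPM in cKO replicate 4 and at 48.8 to 50.2 CPM in the others. Nfil3 was at 12.7 CPM in cKO replicate 1 against 14.3 to 14.4, and Acadl at 36.8 CPM in cKO replicate 1 against 40.0 to 40.6. Fbxl21 was at 1.35 CPM in cKO replicate 2 against 0.381 to 0.429. The WT group of 3 was not examined in this way, and none of the 10 receptor genes was among the 5.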

How the results depend on the processing

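The log2 fold changes of the receptors moved by less than the larger of the SDs of log2 CPM within the groups in 168 of 169 recomputed values. The exception was Rxra, which went from 0.05 to 0.15 with offsets for GC content and length. Rora, with an SD of 0.74 within WT, went from −0.11 to 0.42 with quality weights. Of 67 other named genes, 0 reversed, 10 values lost the threshold (St13 and Tmem119, with a library left out) and 73 gained it. The count of all genes past the threshold, 43, was 538 by DESeq2, 585 with GC and length offsets, 1056 with the Xist covariate, 959 with quality weights, 170 with blocks by run of mouse numbers and 89 without a filter. For the listed genes the count of 1 became 15, 18, 22, 21, 4 and 2 in the same order. With a library left out the counts ranged from 4 to 142 for all genes and from 0 to 4 for the listed genes. The lowest count for all genes came without WT replicate 2, and both highest without cKO replicate 1. The listed genes had 0 without WT replicate 1, 2 or 3 or cKO replicate 2 or 3. Higher genes were 88.4% of the calls, against 56.0% with quality weights, 69.5% by DESeq2, 70.5% with the Xist covariate and 78.2% without cKO replicate 1. They were 6 of 10 calls without WT replicate 1, 2 of 4 without WT replicate 2, 4 of 6 without WT replicate 3 and 3 of 6 without cKO replicate 2 or 3. The causes were not tested. Same-numbered samples deviated with correlations of 0.387, 0.069 and −0.173, so the numbers were not taken to pair the mice. With the replicate block the counts were 318 for all genes (59.4% higher) and 8 for the listed genes. Depth limits Vdr, Rora and Rara.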
